A study of Mus musculus with 12 samples.

Results

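The genes that build cilia and make them beat were followed in cultured mouse neural stem/progenitor cells with and without Ythdf2, a protein that binds m6A-marked mRNAs and speeds their decay. The 71 genes were chosen by symbol: the Ift, Bbs, Dnah, Dnai, Cfap and Rsph families, together with Foxj1, Rfx2, Rfx3, Arl13b and Tmem67. They are 71 of the 24525 genes in the count tables, and 50 of them passed edgeR's filter on low counts, out of 13112 genes that did. The rule itself reads only the symbols. The 22 Ift and Bbs genes are called primary cilium genes here and the 42 Dnah, Cfap and Rsph genes motile cilium genes, which names the families and not what the cells carried.

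Neurospheres, floating cultures of neural stem/progenitor cells (NSPCs), were grown with EGF and bFGF from the brains of E14.5 C57BL/6 embryos and taken at passage P1. RNA-seq input libraries of 3 wild-type and 3 Ythdf2-/- samples were compared. The knockout allele comes from LoxP sites around the 5′ UTR and exon 1 of Ythdf2 and a Cre expressed in the whole body, so the gene is lost in every cell of the embryo. The study calls its samples biological replicates. The sources used here do not say whether each came from its own embryo. The p-values set the difference between genotypes against the spread between these samples.

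A cilium grows from a basal body, and nearly all of its proteins are carried in by intraflagellar transport (IFT). Most cells, neural progenitors among them, carry a single primary cilium that does not beat and serves as an antenna for signals such as Hedgehog, with the BBSome moving receptors through its membrane. Motile cilia, which in the brain stand on ependymal cells and the choroid plexus, add dynein arms, radial spokes and a central pair to the same scaffold. FOXJ1 switches on the genes of motile cilia, and the RFX factors, which bind an element named the X-box, act on the genes of both kinds.

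The libraries held 11029827 to 13185778 counted reads. Ythdf2 had 840, 961 and 999 reads in the wild-type libraries and 137, 198 and 138 in the Ythdf2-/- libraries, so the knockout libraries kept 15.8% of the wild-type CPM (read counts scaled to a common library total, with TMM factors). The log2 fold change of Ythdf2 was -2.66 ± 0.18 (SE; adjusted p = 0.0547, edgeR's quasi-likelihood test with Benjamini-Hochberg adjustment). Wild-type replicate 3 stood apart from the rest, with 136 CPM summed over 10 proliferation genes against 2014 to 2988 in the other 5 libraries. Its sum over 9 astroglial markers was 11430 CPM against 3030 to 8150, and over 9 oligodendrocyte markers 4200 against 1731 to 2164. Y-linked genes had 1111, 1638 and 1 reads in the wild-type libraries and 0, 1 and 2147 in the Ythdf2-/- libraries, so those reads do not divide the libraries by genotype. Results are therefore also given without wild-type replicate 3. In bulk RNA, more cells of a kind and more RNA per cell cannot be told apart.

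The primary and the motile gene families differed in level by a wide margin. Between genes, levels were compared as RPKM (CPM per kilobase of gene length). The median primary cilium gene stood at 10.4 RPKM over the 6 libraries, with a range of 2.09 to 34.5, and the median motile cilium gene at 0.108 RPKM, with a range of 0 to 56.0. All 22 primary cilium genes had at least 10 reads in every library, and 18 had at least 100. Of the 42 motile cilium genes, 15 had at least 10 reads in every library, 18 were under 10 in every library and 3 (Cfap58, Dnah6 and Rsph14) had no read in any. A count of 0 allows up to 0.228 to 0.272 CPM, depending on the library, counting error only. Only 3 motile cilium genes had at least 100 reads in every library, namely Cfap20, Cfap36 and Cfap97.

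**Figure D1:**
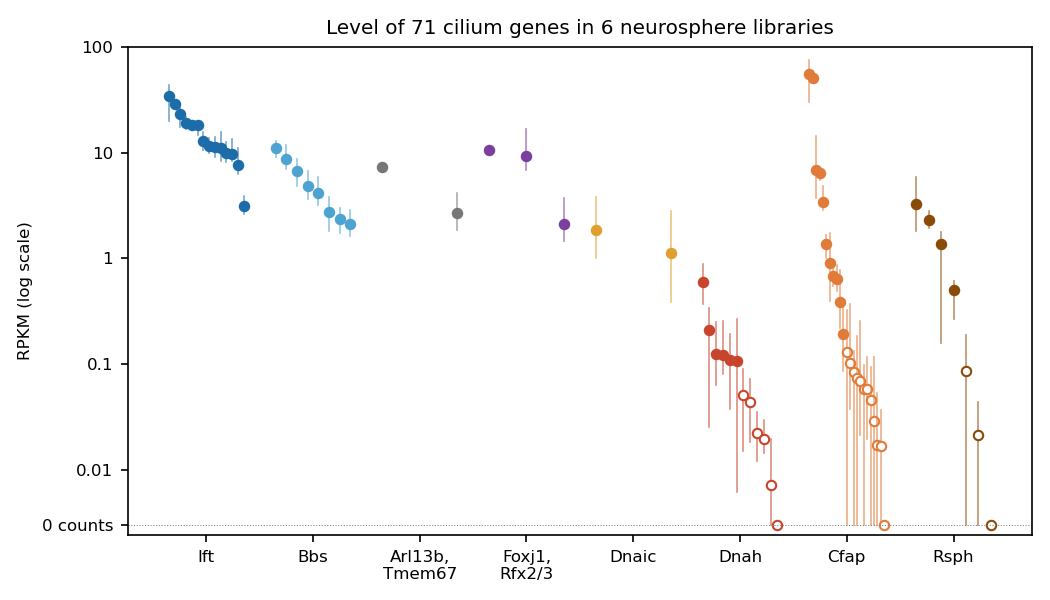
Mean RPKM of each of the 71 genes over 6 libraries (log axis), by family, with a line from the lowest to the highest library; open circles are genes that did not pass the filter on low counts, and the dotted line marks 0 counts. The Ift and Bbs genes lie between 2.09 and 34.5 RPKM, while the Dnah, Cfap and Rsph genes run from 56.0 RPKM down to 0.

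By family, the median level was 12.2 RPKM for the 14 Ift genes and 4.49 RPKM for the 8 Bbs genes. It was 0.0788 RPKM for the 12 Dnah genes, 0.129 RPKM for the 23 Cfap genes and 0.502 RPKM for the 7 Rsph genes. The dynein intermediate chains Dnaic1 and Dnaic2 stood between these groups, at 1.11 and 1.86 RPKM.

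The transcription factors of the programme were present. Foxj1, the regulator of motile ciliogenesis, lies on chromosome 11 (chr11:116330704-116335499, minus strand, GRCm38.p6). It had 27.5, 28.8 and 28.2 CPM in the wild-type libraries and 28.7, 25.6 and 26.6 CPM in the Ythdf2-/- libraries. The genotypes overlapped, and the 6 libraries differed by a factor of 1.12 from lowest to highest. Its mean level of 10.7 RPKM was near the median of the primary cilium genes and far above the median motile cilium gene. The log2 fold change of Foxj1 was -0.06 ± 0.13.

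Rfx3, which activates genes of primary and motile cilia, had 65.7, 62.7 and 152 CPM in wild type and 80.0, 81.2 and 70.3 CPM in Ythdf2-/- neurospheres. The 152 CPM belong to wild-type replicate 3, and the other 5 libraries lie close together, with every Ythdf2-/- library above the other 2 wild-type libraries. The log2 fold change was -0.28 ± 0.36 with all libraries and 0.27 ± 0.11 without that replicate (unadjusted p = 0.0434, adjusted p = 0.288, edgeR). Rfx2, a relative with a part in spermatid and multiciliated cells, gave 7.10, 5.49 and 12.4 CPM in wild type and 4.78, 6.15 and 5.63 CPM in Ythdf2-/-. Again the highest value was that of wild-type replicate 3, and the fold change of Rfx2 was -0.59 ± 0.35 on the log2 scale (-0.19 ± 0.24 without it).

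Because both kinds of factor were expressed, the letters they are known to bind were looked for in the promoters of the genes, on both strands, from 250 bases before to 50 bases after each start in RefSeq's GRCm38.p6 annotation. A promoter was at hand for 60 of the 71 genes, and not for Cfap53, Cfap73, Cfap97, Cfap157, Foxj1, Ift80, Ift81, Ift122, Rsph1, Rsph4a and Tmem67. The X-box GTTNCCNNGGNAAC was found in 1 promoter, that of Bbs7 (1.67% of the 60, against 0.529% of 27025 genes). With 1 base in place of 2 between its arms, GTTNCCNGGNAAC, a spacing added after the data were seen, it was found in that of Ift57 (1.67% against 0.311%). The single arm GTTGCCAT, which shares its first letters with the X-box, was found in Cfap161, Cfap44 and Cfap74 (5.0% against 1.54%). The forkhead letters TGTTTAC were found in Cfap20, Cfap43 and Dnah17 (5.0% against 4.05%), a share near that of all genes. Distances run from the start that the promoter table gives, which can lie inside the gene. That start is 103 bases inside Bbs7, 57 inside Cfap44, 93 inside Cfap43, 1500 inside Dnah17, 3186 inside Cfap161 and 17141 inside Cfap74, counted from the outermost start annotated, and at the outermost start in Ift57 and Cfap20. The matches of Bbs7, Ift57 and Cfap20 begin 18, 60 and 182 bases upstream of the outermost start, and the other 5 lie within the annotated genes. The 3 windows with a match upstream of the outermost start are shown, which include both full X-boxes, in a gene of the BBSome and a gene of IFT, with the match in capitals and the gene's strand read 5′ to 3′:
Bbs7 (chr3:36613477-36613530, minus strand, match 121 to 108 bases upstream): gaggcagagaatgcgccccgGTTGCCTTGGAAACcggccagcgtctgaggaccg
Ift57 (chr16:49699214-49699266, plus strand, match 60 to 48 bases upstream): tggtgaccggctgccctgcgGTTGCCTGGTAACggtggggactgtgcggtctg
Cfap20 (chr8:95435025-95435071, minus strand, match 182 to 176 bases upstream): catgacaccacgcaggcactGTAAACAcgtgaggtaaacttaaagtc
A match is a description of the letters, not a bound site. The genes that hold them did not share a level: Bbs7 and Ift57 stood at 10.97 and 12.9 RPKM, Cfap20 at 56.0 RPKM and Cfap74 at 3.43 RPKM. Cfap43, Cfap44, Dnah17 and Cfap161 stood at 0.678, 0.191, 0.125 and 0.083 RPKM.

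The IFT genes encode the subunits of the trains that carry cargo along the axoneme. The 3 most abundant belong to the IFT-B complex, which moves cargo towards the tip. Ift27, a small GTPase that also helps the BBSome leave the cilium, had 41.4, 41.4 and 20.1 CPM in wild type and 33.9, 44.0 and 29.1 CPM in Ythdf2-/-. The low value of 20.1 CPM is that of wild-type replicate 3, at 0.53 times the mean of the other 5 libraries, and the log2 fold change was 0.05 ± 0.32 (-0.22 ± 0.18 without it). Ift20, which also works at the Golgi, was the steadiest primary cilium gene, with 24.7, 22.8 and 23.6 CPM in wild type and 22.3, 22.1 and 21.9 CPM in Ythdf2-/-. All 3 Ythdf2-/- values lie below all 3 wild-type values, yet the fold change was only -0.10 ± 0.13 on the log2 scale (unadjusted p = 0.463, edgeR). Ift74, a core subunit whose exons overlap an exon of Lrrc19 on the other strand by 62 bases, had 48.4, 46.2 and 44.3 CPM in wild type and 39.2, 53.5 and 33.3 CPM in Ythdf2-/-, and the groups overlapped.

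The median of the Bbs genes was below that of the Ift genes, and the families overlapped. Bbs7, Bbs2 and Bbs9, subunits of the BBSome, led the family at 10.97, 8.79 and 6.63 RPKM. Bbs7 had 33.6, 29.7 and 23.8 CPM in wild type and 27.0, 31.6 and 25.2 CPM in Ythdf2-/-. Bbs2 had 22.7, 23.7 and 34.7 CPM in wild type and 29.2, 24.4 and 20.7 CPM in Ythdf2-/-, and Bbs9 20.9, 18.9 and 28.4 CPM against 21.5, 29.6 and 16.5 CPM. In these 3 genes the genotypes overlapped. Bbs10, a chaperonin-like protein needed to assemble the BBSome, was the primary cilium gene with the lowest p. It had 56, 79 and 65 reads in wild type and 96, 99 and 83 in Ythdf2-/-, or 5.59 ± 0.692 against 7.40 ± 0.756 CPM (SD, n = 3), with no overlap. Its log2 fold change of 0.40 ± 0.23 did not pass the test (unadjusted p = 0.120, adjusted p = 0.999, edgeR).

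Arl13b, a GTPase of the ciliary membrane, had 26.2, 25.0 and 27.8 CPM in wild type and 26.3, 25.6 and 25.4 CPM in Ythdf2-/-. Its counts varied less between libraries than those of any other of the 50 genes, by a factor of 1.11, and the fold change was -0.03 ± 0.13 on the log2 scale. Tmem67, or meckelin, a membrane protein of the transition zone at the base of the cilium, had 111, 108 and 105 reads in wild type and 92, 196 and 82 in Ythdf2-/-. The Ythdf2-/- replicate 2 was highest and replicate 3 lowest of all 6 libraries, and the fold change was 0.08 ± 0.34.

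Genes of motile cilia that stood at primary cilium levels were few. Cfap20, which joins the microtubules of the axoneme doublet and is also part of cilia that do not beat, had 97.8, 88.4 and 39.4 CPM in wild type and 72.8, 56.2 and 80.2 CPM in Ythdf2-/-. The lowest value is that of wild-type replicate 3, and without it all Ythdf2-/- values lie below the wild-type values. Its log2 fold change was -0.11 ± 0.35 with all libraries and -0.42 ± 0.16 without that replicate (unadjusted p = 0.0411, adjusted p = 0.282, edgeR). Cfap36, a partner of the ciliary GTPase ARL3, had 80.6, 72.7 and 69.5 CPM in wild type and 69.2, 90.8 and 77.5 CPM in Ythdf2-/-. Cfap97 had 24.8, 26.4 and 30.6 CPM in wild type and 30.3, 30.8 and 31.1 CPM in Ythdf2-/-. Its log2 fold change was 0.17 ± 0.14, and 0.26 ± 0.11 without wild-type replicate 3 (unadjusted p = 0.0489, adjusted p = 0.299, edgeR).

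Cfap100, a regulator of inner-arm dyneins, was the other Cfap gene among the 3 most abundant of its family, at 6.91 RPKM, above Cfap97 at 6.41. It had 94, 140 and 335 reads in wild type and 162, 189 and 144 in Ythdf2-/-, so wild-type replicate 3 stood at 2.64 times the mean of the others. Its log2 fold change was -0.32 ± 0.51 with all libraries and 0.49 ± 0.20 without that replicate (unadjusted p = 0.0506, edgeR). Cfap44, an inner-arm tether, was near the lower end of the genes tested, with 12, 11 and 27 reads in wild type and 11, 23 and 7 in Ythdf2-/-.

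The dynein heavy chains, the motors of the beat, were near the lower limit of the counts. Of 12 Dnah genes, 6 passed the filter, and no Dnah gene exceeded a mean of 0.593 RPKM over the 6 libraries. That highest value was Dnah7b, an inner-arm chain, with 59, 103 and 57 reads in wild type and 122, 61 and 134 in Ythdf2-/-. It is a close copy of Dnah7a (2 to 5 reads per library) and Dnah7c (2 to 13), so how the counting shared reads among the 3 is uncertain. Dnah8, an outer-arm chain best known from sperm, had 58, 58 and 4 reads in wild type and 28, 30 and 50 in Ythdf2-/-. Wild-type replicate 3 had 0.102 times the mean of the others, and the log2 fold change was -0.18 ± 0.80 with all libraries and -0.70 ± 0.34 without that replicate. Dnah9, an outer-arm chain of multiciliated cells, had the widest ratio between libraries of the 50 genes tested. It had 12, 13 and 24 reads in wild type and 1, 49 and 11 in Ythdf2-/-. Its 42.5-fold range lies within the Ythdf2-/- group, and the log2 fold change was 0.15 ± 1.01. Dnah17, another outer-arm chain, had 11, 28 and 41 reads against 14, 17 and 23, with exons that overlap Pgs1 on the other strand by 93 bases. Dnah2, an inner-arm chain, had 6, 17 and 29 reads against 12, 14 and 31. Dnah5, the outer-arm chain of airway and ependymal cilia, had 3 to 5 reads in each library.

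Both outer-arm intermediate chains were highest in wild-type replicate 3. Dnaic1 had 17, 24 and 77 reads in wild type and 31, 36 and 12 in Ythdf2-/-, which put that replicate at 3.69 times the mean of the others. The log2 fold change of Dnaic1 was -0.71 ± 0.73 with all libraries and 0.34 ± 0.50 without it. Dnaic2 had 43, 48 and 118 reads in wild type and 85, 51 and 36 in Ythdf2-/-.

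Among the radial spoke genes, Rsph9 and Rsph1 encode parts of the spoke head and Rsph3a part of the stalk. Rsph9 had 20, 34 and 60 reads in wild type and 30, 62 and 21 in Ythdf2-/-. Rsph3a, which shares sequence with Rsph3b so that their reads cannot be parted with certainty, had 60, 56 and 41 against 52, 53 and 69. Rsph1 had 23, 27 and 2 reads in wild type and 21, 21 and 25 in Ythdf2-/-. Here wild-type replicate 3 was the low library, at 0.0975 times the mean of the others, and the log2 fold change was 0.33 ± 0.72 (-0.18 ± 0.31 without it). Rsph4a, another spoke head gene, had at most 9 reads in a library.

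**Figure D2:**
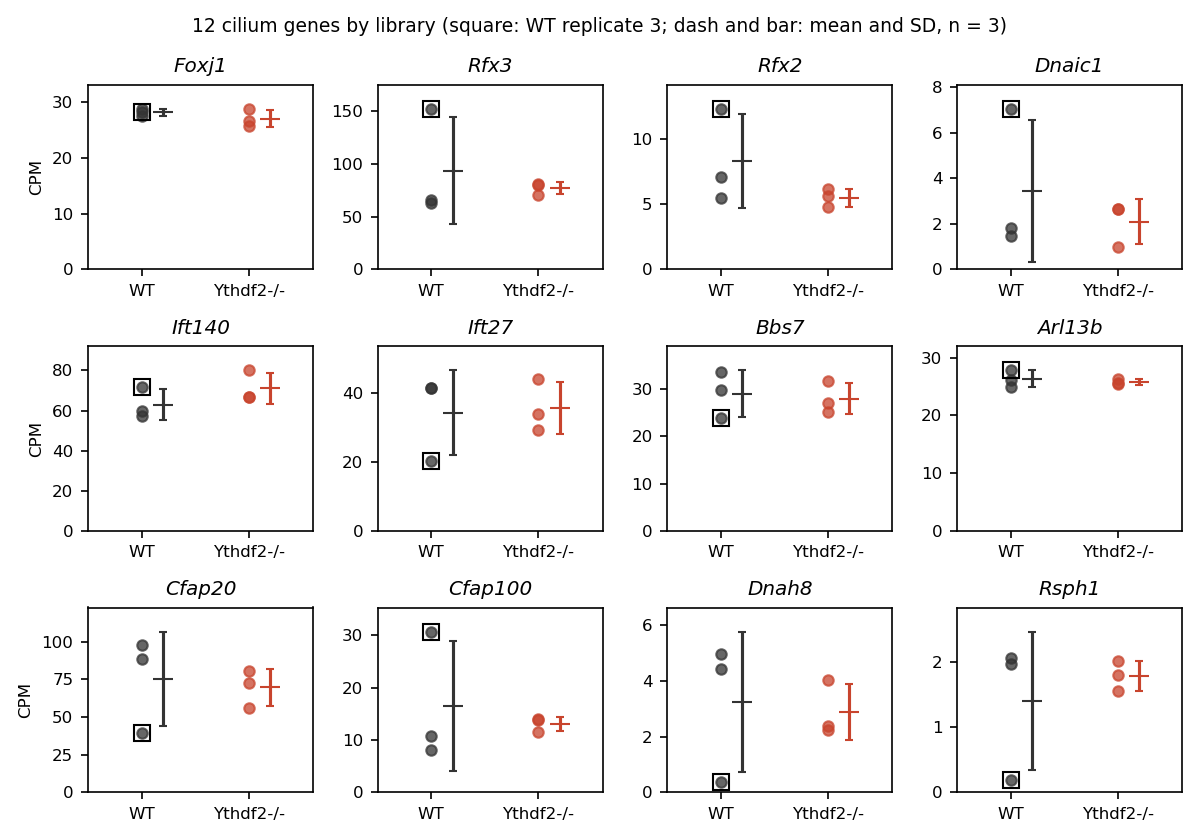
CPM of 12 genes in each library, on axes that start at 0, with the mean and SD of the 3 libraries of each genotype beside the points and a square around wild-type replicate 3. Foxj1 and Arl13b are level, Rfx3, Rfx2, Dnaic1 and Cfap100 are highest in wild-type replicate 3, and Cfap20, Ift27, Dnah8 and Rsph1 are lowest there.

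Over all members, the genotypes did not differ more than genes at large. With 6 libraries, 0 of 50 members had an adjusted p under 0.05 by edgeR, as did 0% of the 13112 genes tested. An unadjusted p under 0.05 was reached by 0 of 50 members against 3.63% of all genes, and the lowest member p was 0.120 (Bbs10). DESeq2 and limma-voom gave 0 members at either threshold, where 4.27% and 3.47% of all genes had an unadjusted p under 0.05 and 31 and 0 genes an adjusted p under 0.05. Genotypes that did not overlap were found in 2 of 50 members (4%), Bbs10 and Ift20, against 10.2% of all genes. The median log2 fold change was -0.0022 for the primary cilium genes, 0.01 for the 21 motile cilium genes tested and -0.01 for all genes. Standard errors ran from 0.13 (Ift52) to 0.37 (Bbs5) in the primary set and from 0.14 (Cfap97) to 1.01 (Dnah9) in the motile set, so that the fold changes of the sparse motile genes were the least precise.

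Without wild-type replicate 3, 3 of 51 members tested had an unadjusted p under 0.05 (5.88%), namely Rfx3 and Cfap97 higher and Cfap20 lower in Ythdf2-/-, against 16.6% of 13283 genes. None of the 51 members had an adjusted p under 0.05, against 2 genes or 0.0151% of all. The genotypes did not overlap in 12 of 51 members (23.5%) against 38.9% of all genes. The sign of the fold change turned in 16 of the 50 members tested both ways. The median log2 fold change without that replicate was 0.04 for the primary and 0.22 for the motile cilium genes, against 0.01 for all genes.

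**Figure D3:**
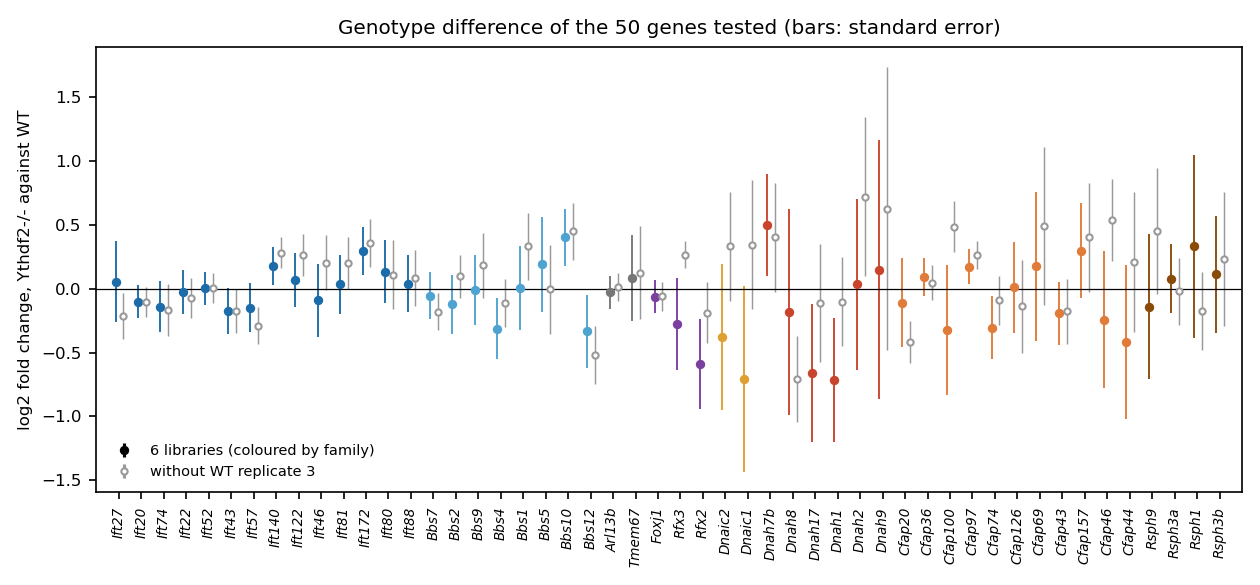
Log2 fold change of Ythdf2-/- against wild type for the 50 genes tested, ordered by family and level, with bars of 1 standard error; filled points use 6 libraries and open grey points leave out wild-type replicate 3. The primary cilium genes lie between -0.33 and 0.40 and the motile ones between -0.72 and 0.50 with 6 libraries.

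Wild-type replicate 3 set members apart no more often than genes at large. Counting as apart a gene that wild-type replicate 3 put at least 1.5-fold above or below all 5 other libraries, a count chosen after the values were seen, 9 of 50 members were apart (18.0%), against 22.0% of all genes tested. Of these, 7 were high there (Cfap100, Cfap46, Dnah17, Dnah1, Dnaic1, Rfx3 and Rfx2) and 2 were low (Dnah8 and Rsph1). None of the 22 primary cilium genes was apart and 6 of the 21 motile cilium genes were (28.6%). The difference between these shares was not tested, nor was the part in it of the lower read counts of the motile genes. The ratio of the highest to the lowest library had a median of 1.62 in the primary set and 3.22 among the motile genes tested.

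Within the primary set, the widest gap lay between 2 libraries of the same genotype, Ythdf2-/- replicates 2 and 3. In Ythdf2-/- replicate 2, 18 of the 22 genes were above their own mean over the libraries, and in replicate 3 only 2 of 22 were. The median deviation was 0.23 and -0.20 on the log2 CPM scale in these 2 libraries and between -0.06 and 0.03 in the other 4. Summed over the 22 genes, the CPM were 579.8, 585.6 and 641 in wild type and 581, 725 and 523 in Ythdf2-/-, or 602 ± 33.7 against 610 ± 104 (SD, n = 3). The genotypes overlapped, with the highest and the lowest sum both in Ythdf2-/-.

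**Figure D4:**
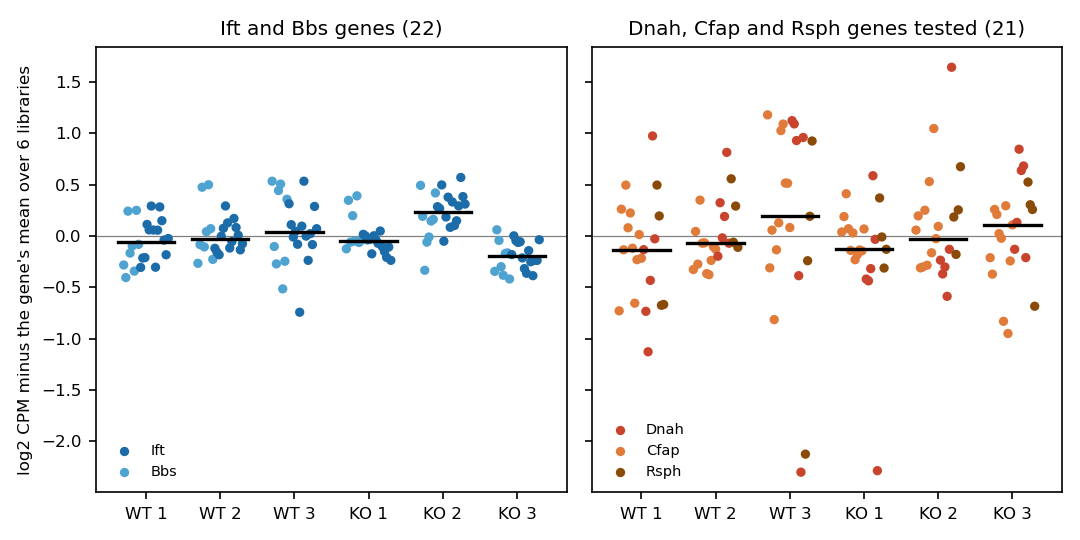
Log2 CPM of each gene minus its mean over the 6 libraries (KO, Ythdf2-/-), for the 22 primary cilium genes and the 21 motile cilium genes tested, with black lines at the medians. The primary genes lie within -0.74 and 0.57, while the motile genes spread from -2.30 to 1.64.

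The sum over all 42 motile cilium genes was 234 to 258 CPM in every library, since Cfap20, Cfap36 and Cfap97 make up most of it. Without these 3, a split made after their values were seen, the other 39 summed to 54.3, 61.1 and 94.5 CPM in wild type and 63.4, 65.8 and 65.4 CPM in Ythdf2-/-. Wild-type replicate 3 was highest and the Ythdf2-/- libraries lay together within the range of wild type. The primary sum was 10.7, 9.58 and 6.78 times this motile sum in the wild-type libraries and 9.17, 11.03 and 7.99 times in the Ythdf2-/- libraries. With all 42 motile genes the ratios were 2.25, 2.36 and 2.74 in wild type and 2.47, 2.98 and 2.06 in Ythdf2-/-. The primary sum was the larger in all 6 libraries either way, but the order of the libraries depends on those 3 genes. Wild-type replicate 3 had the lowest ratio without them and one of the highest with them, after Ythdf2-/- replicate 2. Cfap100, among the other 39, gave 30.7 of the 94.5 CPM in wild-type replicate 3 and 8.04 to 14.0 CPM elsewhere.

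**Figure D5:**
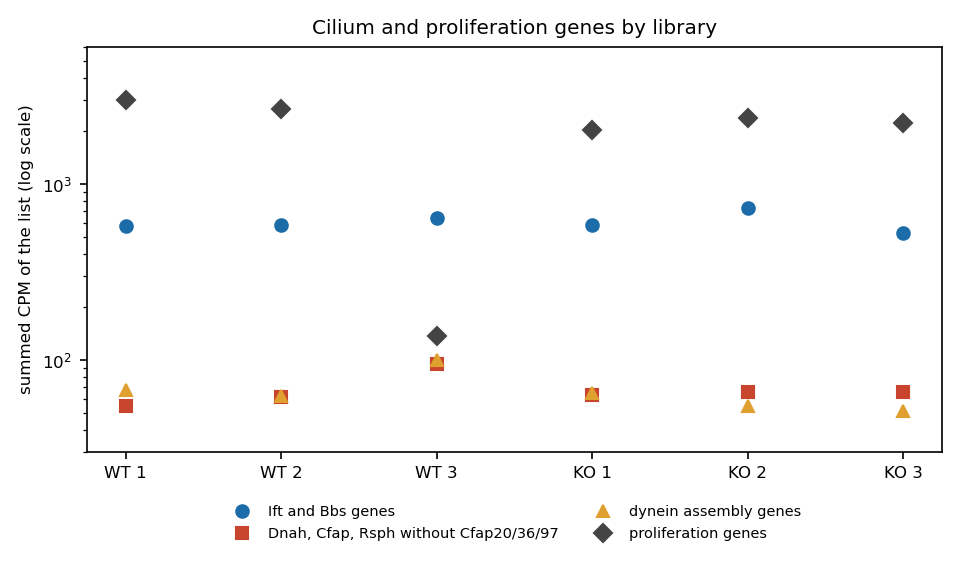
Summed CPM (log axis) of the 22 primary cilium genes, of 39 motile cilium genes, of 11 dynein assembly genes and of 10 proliferation genes in each library (KO, Ythdf2-/-). The motile and dynein assembly sums are highest, at 94.5 and 99.5 CPM, in wild-type replicate 3, where the proliferation sum is 136 CPM.

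The rest of the machinery, outside the members, was followed with 9 pathway lists, none of which held a gene with an adjusted p under 0.05 by edgeR. Of 9 IFT motor genes, all were tested and none had an unadjusted p under 0.05 with or without wild-type replicate 3. Their median log2 fold change was -0.05 with all libraries and 0.13 without that replicate. They were led by Kif3a, Kifap3 and Kif3b, subunits of kinesin-2, and summed to 617 CPM in wild-type replicate 3 against 420 to 487 in the other libraries. The 10 IFT subunits named by other symbols (led by Wdr35, Cluap1 and Wdr19) summed to 166 to 208 CPM, the 7 BBSome partners (Rab8a, Bbip1, Mkks) to 235 to 300.0 CPM, and the 12 basal body docking genes (Fbf1, Odf2, Ttbk2) to 499 to 628 CPM. The 12 genes of ciliary membrane signalling, led by Pkd1, the Hedgehog transducer Smo and Arl3, summed to 707 to 988 CPM. None of these 5 lists held a gene with an unadjusted p under 0.05 with all libraries. Without wild-type replicate 3, Ttc30b and Cep97 had an unadjusted p under 0.05 with higher values in Ythdf2-/-, and Bbip1, Cep83 and Adcy3 with lower values. In that fit 16.6% of all genes were past the same threshold.

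Among 21 transition zone genes, which form the gate at the base of the cilium, 1 had an unadjusted p under 0.05, against 3.63% of all genes. Cc2d2a had 609, 712 and 690 reads in wild type and 882, 1079 and 806 in Ythdf2-/-, with no overlap, and a log2 fold change of 0.38 ± 0.14 (unadjusted p = 0.0367, adjusted p = 0.999, edgeR). Of 31 other genes of the motile axoneme, led by Dnal1, Dnal4 and Gas8, 15 were tested. Gas8, a subunit of the nexin-dynein regulatory complex that also occurs outside motile cilia, had 279, 305 and 382 reads in wild type and 218, 235 and 209 in Ythdf2-/-. Its groups did not overlap, and the log2 fold change was -0.64 ± 0.20 (unadjusted p = 0.0193, adjusted p = 0.999, edgeR). Genotypes that did not overlap were found in 10.2% of all genes. They were also found in other genes of these lists, such as Cep290 (lower) and Invs and Dynlrb2 (higher in Ythdf2-/-). Neither unadjusted call, of Cc2d2a or of Gas8, held in every fit that left out 1 library.

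The regulators of multiciliated cells ranged from no reads to well detected. Gmnc, which starts it, had 3 and 1 reads in wild-type replicates 1 and 2 and none in the other 4 libraries. Mcidas, which acts next, had 2, 3 and 8 reads in wild type and 1, 1 and 3 in Ythdf2-/-. Ccdc67, which amplifies centrioles in multiciliated cells, had 1 or 2 reads per library and Foxn4 none. Ccno, which acts in centriole amplification, was detected, with 26, 21 and 41 reads in wild type and 13, 25 and 27 in Ythdf2-/-, and its genotypes overlapped. Of 16 such regulators in the tables, 10 were tested, and the most abundant were the wider-acting Rfx4, Rfx7 and Rfx5. None of the 10 had an unadjusted p under 0.05 with all libraries. Without wild-type replicate 3, 6 did, against 16.6% of all genes, with Rfx7 higher and Rfx4, E2f4, E2f5, Plk4 and Myb lower in Ythdf2-/-, and none had an adjusted p under 0.05 (edgeR). In the same fit 5 of the 10 proliferation genes had an unadjusted p under 0.05, all lower in Ythdf2-/-, and the median log2 fold change of that list was -0.42, where it was 0.16 with all libraries. The part of these cell-cycle genes in the values of the regulators was not tested. Plk4 and Stil, which also duplicate centrioles in dividing cells, had 56 and 11 reads in wild-type replicate 3 against 468 to 686 and 418 to 656 in the other libraries.

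The dynein assembly factors, which fold the arms in the cytoplasm, summed to 99.5 CPM in wild-type replicate 3 and to 51.4 to 67.8 CPM elsewhere. Of these 11 genes, 7 were tested, none with an unadjusted p under 0.05 (without that replicate, Dnaaf2 alone, lower in Ythdf2-/-), and Pih1d3 was at 0 throughout. Spag1 had 112, 155 and 672 reads in wild type and 248, 143 and 104 in Ythdf2-/-, while Dnaaf2 had 329, 321 and 98 against 247, 267 and 211, so the list did not move as a whole in that replicate.

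Markers of the cells that carry motile cilia were mostly sparse. Of 11 ependymal markers in the tables, the defining gene Tmem212 was at 0 in all libraries and Ccdc153 had 2 to 9 reads. Pltp, a lipid transfer protein also made by other cells, had 104, 157 and 258 reads in wild type and 70, 123 and 60 in Ythdf2-/- (unadjusted p = 0.0376, adjusted p = 0.999, edgeR). With all libraries, 3.63% of all genes had an unadjusted p under 0.05. The genotypes of Pltp overlapped, and without wild-type replicate 3 its unadjusted p was 0.0808 (edgeR). The list genes Acta2 and Tm4sf1 had an unadjusted p under 0.05, with lower values in Ythdf2-/-, in the absence of that replicate. In that fit 16.6% of all genes were past the same threshold. Acta2 was lowest in wild-type replicate 3, with 3 reads against 6 to 32 in the other libraries. The summed level of the ependymal list was 105 to 371 CPM in wild type and 96.5 to 130 CPM in Ythdf2-/-, and most of it was Sox9, which progenitors and astrocytes also express. Of 10 choroid plexus markers, 2 passed the filter on low counts and Ttr had 0 to 2 reads per library. Aqp1, a water channel, had 9, 18 and 68 reads in wild type and 3, 7 and 6 in Ythdf2-/-, and the folate receptor Folr1 had 5, 12 and 45 against 2, 4 and 0. Both were too sparse to test, and wild-type replicate 3 stood at 9.15 and 11.4 times the mean of the other libraries. Their genotypes did not overlap, which with no filter held for 9.25% of all genes. Other genes of the list overlapped, among them Kcnj13 with 4, 11 and 13 reads in wild type and 7, 7 and 10 in Ythdf2-/-. Kcne2 had 0, 2 and 3 against 1, 0 and 2, and Clic6 and Kl had 0 reads in wild-type replicate 3. The list summed to 39.3 to 68.9 CPM in wild type and 25.1 to 47.2 CPM in Ythdf2-/-, led by Otx2. Both lists were highest in wild-type replicate 3. The motile sum was highest there too, at 94.5 CPM, only without Cfap20, Cfap36 and Cfap97, a split made after their values were seen. With those genes included, the motile sum was lowest in wild-type replicate 3, at 234 CPM. The part of both lists in either sum was not tested.

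The other markers placed the cultures in the neural lineage. The most abundant of 9 progenitor markers were Vim, Fabp7 and Nes, and the list summed to 3469 CPM in wild-type replicate 3 and 4851 to 6548 CPM in the other libraries. The 10 neuronal markers summed to 2474 CPM in that replicate and 1460 to 1862 CPM elsewhere. The 8 microglial markers summed to 1.13 to 1.55 CPM and the 9 endothelial and mesenchymal markers to 1.46 to 2.47 CPM, with C1qa, C1qb and Cldn5 at 0. Some markers had an unadjusted p under 0.05 between genotypes with all libraries, and none had an adjusted p under 0.05 (edgeR). Among them, Stmn2, Gfap and Prom1 were lower and Cspg4 was higher in Ythdf2-/-, and their unadjusted p stayed under 0.05 without wild-type replicate 3. Dcx, Sox10 and Mbp were past it only with that replicate, which had 3441, 1337 and 6262 reads of them against 98 to 172, 7 to 46 and 15 to 116 in the other libraries.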

How the data were processed

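Samples were grouped by genotype from their titles. The authors aligned reads to mm10, and raw counts per gene, whole numbers without normalization, were deposited for the 6 input libraries. The libraries were made with a stranded kit; the submitters' processing notes name featureCounts, but its strand setting is not given in the sources used here, so 7 genes with exons overlapping another gene on the other strand are uncertain. A deposited gene table per library also holds expected counts and FPKM (the notes name RSEM 1.2.15 and Bowtie2 2.2.9), whose expected counts sum to 1.97% to 2.40% of the raw counts, so the FPKM values, made by the authors, served only as an alternative. The m6A libraries were not analysed here.

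The raw counts were tested with edgeR 4.0.16 in R 4.3.3 (filterByExpr, TMM, robust glmQLFit, glmQLFTest, genotype as the only term, Benjamini-Hochberg over all 13112 genes), after a test on simulated data. CPM used TMM factors. RPKM divided CPM by the gene length in the deposited table. Log2 CPM used a prior count of 2. The alternatives were limma-voom (limma 3.58.1), DESeq2 1.42.0, other filters and scalings, sample quality weights, a replicate block, a term for Y-linked reads and leaving out each library. Positions and promoters came from RefSeq on GRCm38.p6, the assembly also called mm10. Figures were drawn with matplotlib in Python.

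The members, the lists and the tests were chosen with earlier results of these data known. Named with values were Foxj1, Rfx2, Rfx3, Arl13b and Tmem67, the 3 members of each family with the highest mean RPKM, members with an unadjusted p under 0.05 with all libraries or without wild-type replicate 3, the 6 tested members with the widest ratio between libraries, up to 3 of the most abundant genes of each list and any list gene with an unadjusted p under 0.05. Other genes, such as Bbs10, Dnah5, Spag1 the multicilia regulators and list genes named for the fit without wild-type replicate 3, were named after their values were seen, and fold changes are printed for part of the named genes. Part of the list genes is not reported here by name.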

Additional observations from a re-analysis of the deposited data

How the results depend on the processing

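No member had an adjusted p under 0.05 under any of the 14 alternatives, where 632 of all genes did with sample quality weights, 31 with DESeq2, 13 with the term for Y-linked reads and 0 to 2 under the others. Of members with an unadjusted p under 0.05, sample quality weights gave 5 higher and 5 lower (with 29.9% of all genes under 0.05), the term for Y-linked reads 2 lower (1436 of all genes), and leaving out a library 0 to 2 higher and 0 to 1 lower (1.85% to 16.6% of all genes). Outside the members, Cc2d2a had a log2 fold change of 0.46 and an adjusted p of 0.0407 with sample quality weights (limma), against adjusted p-values of 0.191 or more under the other alternatives. Its unadjusted p was 0.109 with the replicate block and 0.00765 to 0.117 when a library was left out, above 0.05 without wild-type replicate 1 or 2 or Ythdf2-/- replicate 1 or 2. That of Gas8 was 0.0574 with the block and 0.0138 to 0.0602 when a library was left out, above 0.05 without Ythdf2-/- replicate 2 or 3. Genotypes did not overlap in 4 members with no filter (9.25% of all genes) and in 3 to 12 when a library was left out, 12 of 51 without wild-type replicate 3 (38.9% of all genes) and 12 of 51 without Ythdf2-/- replicate 2 (22.2% of all genes). With sample quality weights the log2 fold change turned to 0.27 for Rfx3, 0.033 for Arl13b, -0.10 for Tmem67, -0.28 for Ift27, 0.46 for Cfap100, -1.94 for Dnah9, 0.33 for Dnaic1 and -0.12 for Rsph1. With the term for Y-linked reads it turned to -0.10 for Tmem67, 0.24 for Cfap20, 0.79 for Dnah8 and -0.20 for Dnah9, and with limma-voom to 0.37 for Dnah8 and -0.77 for Dnah9. With the replicate block, where same-numbered samples shared only a number (correlations of their deviations -0.25, -0.24 and -0.39), 0 members had an unadjusted p under 0.05 (183 of all genes, 1.40%), and the fold change turned to -0.00073 for Tmem67, 0.12 for Dnah8 and -0.57 for Dnah9. Leaving out 1 library, it ran from -0.49 to 0.27 for Rfx3, -0.065 to 0.013 for Arl13b, -0.32 to 0.30 for Tmem67, -0.22 to 0.21 for Ift27, -0.42 to 0.13 for Cfap20, -0.65 to 0.49 for Cfap100, -0.70 to 0.25 for Dnah8, -1.48 to 0.70 for Dnah9, -1.07 to 0.34 for Dnaic1 and -0.18 to 0.71 for Rsph1. The deposited FPKM gave a median of 0.248 for the primary and 0 for the motile cilium genes, averaged over the medians of the 6 libraries, where RPKM averaged in the same way gave 10.2 and 0.105; 24 of the 71 genes are listed at 0 FPKM in all 6 libraries. The cause of these changes was not tested. Depth limits the motile set, since 21 of its 42 genes had too few reads to test.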
